A study of Homo sapiens with 4 samples.

Results

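The expression of 10 genes of the G1 cell cycle machinery was followed in TET1-reprogrammed ovarian cancer cells. The genes were given by symbol: the D-type cyclins CCND1, CCND2 and CCND3, the E-type cyclins CCNE1 and CCNE2, the cyclin CCNA1, the kinases CDK4 and CDK6, and the inhibitors CDKN1B (p27) and CDKN2A (p16 and ARF). All 10 were found among the 26506 genes listed. RNA-seq libraries had been made from 2 ovarian cancer cell lines, HeyC2 and SKOV3, with 1 library per group and 4 libraries in all. The control group of each line carried empty plasmid and the TET1 group carried pCMV6/TET1, a plasmid with the full-length TET1 coding sequence behind the CMV promoter. TET1 is a methylcytosine dioxygenase that starts active DNA demethylation. Cells of all 4 groups, labelled wild-type before transfection, received 3 µg plasmid by lipid transfection and were selected and kept in 400 µg/ml Geneticin, so that selection was shared by controls. Whether the selected cells were 1 clone or a pool is not given in the sources used here, and the libraries have no replicate check, so no test between groups was made.

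In the G1 phase, D-type cyclins bind CDK4 or CDK6 and start the phosphorylation of the RB protein, which releases E2F factors. E2F then drives the E-type cyclins, which with CDK2 complete the phosphorylation of RB and open S phase. p16 binds CDK4 and CDK6 and keeps D-type cyclins off them, while p27 mainly blocks cyclin E and cyclin A complexes with CDK2. In ovarian carcinoma, gain of CCNE1 and loss of CDKN2A are known lesions of this switch.

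TET1 acts on methylated CpG sites, so the 250 bases upstream of the start site are shown for the 4 members with 1 promoter window each in the RefSeq table (GRCh38.p14, a build that is not the one of the values). Each is written 5′ to 3′ on the strand of the gene, with CpG dinucleotides in capitals. CCNA1 (chr13:36431705-36431954, plus) and CCNE1 (chr19:29811741-29811990, plus) are cyclins that were at least 1.5-fold lower with TET1 in 1 or both lines, CDKN1B (chr12:12717118-12717367, plus) is the inhibitor, and CDK4 (chr12:57752311-57752560, minus) is the kinase with little change:
CCNA1: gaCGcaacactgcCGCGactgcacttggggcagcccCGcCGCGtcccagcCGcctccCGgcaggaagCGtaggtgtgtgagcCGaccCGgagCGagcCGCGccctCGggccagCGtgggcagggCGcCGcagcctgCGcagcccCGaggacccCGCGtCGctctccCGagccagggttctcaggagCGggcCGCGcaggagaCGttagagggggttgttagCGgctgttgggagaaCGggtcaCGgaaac
CCNE1: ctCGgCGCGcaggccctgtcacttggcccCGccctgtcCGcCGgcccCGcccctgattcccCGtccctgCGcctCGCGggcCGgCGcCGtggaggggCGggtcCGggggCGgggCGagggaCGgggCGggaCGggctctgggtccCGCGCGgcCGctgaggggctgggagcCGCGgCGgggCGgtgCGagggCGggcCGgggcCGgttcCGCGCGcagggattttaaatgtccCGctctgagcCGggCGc
CDKN1B: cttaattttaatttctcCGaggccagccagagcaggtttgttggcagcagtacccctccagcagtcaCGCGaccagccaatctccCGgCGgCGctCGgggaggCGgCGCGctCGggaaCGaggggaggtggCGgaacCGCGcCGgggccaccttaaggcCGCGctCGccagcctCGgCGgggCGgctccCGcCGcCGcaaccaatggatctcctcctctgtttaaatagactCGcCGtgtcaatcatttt
CDK4: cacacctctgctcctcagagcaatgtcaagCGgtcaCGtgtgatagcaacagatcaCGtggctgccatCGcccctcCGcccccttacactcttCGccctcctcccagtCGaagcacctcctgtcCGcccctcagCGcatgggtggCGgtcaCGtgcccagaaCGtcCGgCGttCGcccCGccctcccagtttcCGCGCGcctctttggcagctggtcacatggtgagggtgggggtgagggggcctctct
The CCNE1 window holds 39 CpG, more than 97.3% of the 35114 windows of this length in the table, and the CCNA1 window holds 31, more than 89.1% of them. CDKN1B has 27 and CDK4 has 19, against a median of 11 over all windows. The E2F motif TTTNNCGC, searched on both strands, was in 0 of the 11 windows of the 7 members that the table holds and in 5.92% of all windows. With 11 windows, a count of 0 cannot be told apart from that share. CCND1, CCND2 and CCNE2 have no window there and were not searched. DNA methylation was not analysed here, so these windows are a description only.

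The members lie on 8 chromosomes of GRCh37, the build of hg19 used for the deposited values. CCND1 spans 11:69455924-69469242 on the plus strand and CCND3 spans 6:41902672-42018095 on the minus strand. CCNE1 lies at 19:30302898-30315219 (plus), CCNE2 at 8:95891998-95908906 (minus) and CCNA1 at 13:37005657-37017007 (plus). CDK6 lies at 7:92234235-92465887 (minus) and CDKN2A at 9:21967751-21995300 (minus). Chromosome 12 holds 3 members: CCND2 at 12:4378937-4414519 (plus) and CDKN1B at 12:12838432-12875303 (plus) on the short arm, and CDK4 at 12:58141510-58149796 (minus) on the long arm. Values are per whole gene, with no resolution into exons or isoforms.

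The libraries held about 6500000 to 7500000 fragments each, as estimated from the steps of low values, and 15162 to 16941 genes above 0. Values are FPKM, fragments per kilobase of transcript scaled to the depth of the library. As inferred from their value grid, the deposited TET1 values had been multiplied by a constant, 3.23 in HeyC2 and 1.35 in SKOV3. The constant sets GAPDH equal to the control and was divided out here. FPKM below are without it. Before this scaling, GAPDH was 5417 FPKM in control and 1675 FPKM in TET1-reprogrammed HeyC2, and 2248 and 1671 FPKM in SKOV3. TET1 itself was 0.20 and 0.52 FPKM in HeyC2 and 0.43 and 1.80 FPKM in SKOV3, control first, so it was higher in the TET1 library of each line, at low levels in all 4. The values do not separate plasmid from endogenous TET1. Of 9 ovarian carcinoma markers, 5 to 7 reached 1 FPKM in each library. PAX8 was between 74.6 and 195 FPKM and KRT8 between 386 and 775 FPKM, while WT1 and MUC16 were at or near 0 in all 4. In SKOV3, KRT7 was 1537 FPKM in control and 22.0 FPKM with TET1, KRT19 was 255 and 0.46, and ERBB2 was 1282 and 1464. In HeyC2, KRT7 was 290 FPKM in control and 1125 FPKM with TET1, KRT19 was 0.62 and 1.59, and EPCAM was 0.09 and 0.38. The summed FPKM of these 9 markers was 1292 and 2110 in HeyC2 and 3917 and 2664 in SKOV3. Of 3 leukocyte, 3 endothelial and 3 fibroblast markers, CD3E was at 0, and PTPRC, PECAM1, VWF and DCN were below 1 FPKM in all 4 libraries. The summed FPKM of the leukocyte markers, nearly all of it CD68, was 56.3 and 90.2 in HeyC2 and 12.8 and 20.6 in SKOV3. The endothelial sum was 19.4 and 94.8 in HeyC2, nearly all of it CDH5, and 0.26 and 0.36 in SKOV3. The fibroblast sum was 0.57 and 1.76 in HeyC2 and 0.91 and 32.0 in SKOV3, with COL1A1 at 27.7 FPKM and LUM at 4.32 FPKM in TET1-reprogrammed SKOV3. The part of these cell types in the results was not tested. In bulk RNA, fewer cells that express a gene and less RNA per cell cannot be told apart.

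The change with TET1 is given as a relative log2 change: log2(FPKM + 1) in the TET1 library minus that in the control, minus the median of the same difference over all genes with a mean of at least 1 FPKM. That median was 0.06 over 11896 genes in HeyC2 and 0.19 over 13016 genes in SKOV3, and 1.61 and 0.59 with the values as deposited. A gene was called higher or lower past 1.5-fold, which is 0.58 on the log2 scale. In HeyC2, 8 of the 10 members passed the filter, of which 4 were called lower (CCND1, CCNE1, CCNA1 and CDKN1B) and 1 was called higher (CCNE2). Of all genes tested in HeyC2, 9.19% were called lower and 12.5% higher. In SKOV3, 8 members passed, 3 were called lower (CCND1, CCNE2 and CCNA1) and 0 higher, where 18.2% of all genes were called lower and 20.7% higher. The higher calls were 53.2% of all calls in SKOV3, and 63.4% under upper quartile scaling. The median relative log2 change of the members that passed was -0.55 in HeyC2 and -0.47 in SKOV3, against 0 over all genes by construction. Of the 8 that passed, 7 in HeyC2 and 8 in SKOV3 were below the all-gene median. CCND1 and CCNA1 were called lower in both lines, and CCNE2 was called in opposite directions.

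**Figure D1:**
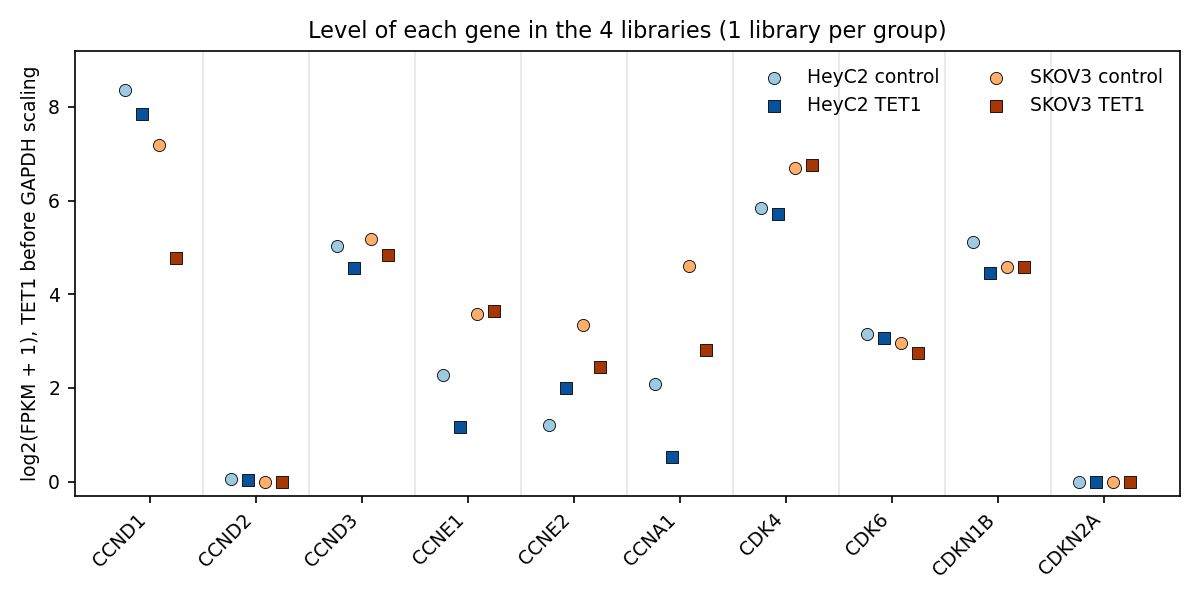
FPKM of the 10 members in each of the 4 libraries, with the GAPDH constant divided out, on a log2(FPKM + 1) axis with 1 point per library. CCND1 was the highest member in 3 libraries and was 26.2 FPKM, below CDK4 and CCND3, in TET1-reprogrammed SKOV3, while CDKN2A was listed at 0 in all 4.

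CCND1, the D-type cyclin that links growth signals to CDK4 and CDK6, was the most abundant member in both controls. It was 329 FPKM in control and 228 FPKM in TET1-reprogrammed HeyC2, about 10045 and 6204 fragments. In SKOV3 it was 145 FPKM in the control and 26.2 FPKM with TET1, about 4176 and 696 fragments. The TET1 library was the lower one in each line, and the level in TET1-reprogrammed HeyC2 was above that of the SKOV3 control. The relative log2 change was -0.59 in HeyC2 and -2.62 in SKOV3, with 95% exact binomial intervals of -0.64 to -0.55 and -2.80 to -2.57 for the ratio without pseudocount. These intervals, here and below, come from the estimated fragments and cover counting error only. In SKOV3 this was a 5.54-fold lower FPKM. The call in HeyC2 was just past the threshold and was lost with the values as deposited, at -0.45, and with a filter of 5 FPKM, at -0.57. Before TET1, CCND1 was higher than 98.0% of all listed genes in SKOV3, and after it higher than 86.7%, while in HeyC2 the shares were 99.3% and 98.9%.

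CCND3, the D-type cyclin best known from lymphoid cells, was lower with TET1 in both lines, but not past the threshold in either. It was 31.7 and 22.7 FPKM in HeyC2 and 35.1 and 27.6 FPKM in SKOV3, control first. Its relative log2 change was -0.52 (interval -0.77 to -0.33) in HeyC2 and -0.53 (interval -0.77 to -0.36) in SKOV3, just short of the threshold and below 0 in both. CCND2, the D-type cyclin of gonadal and blood cells, was almost absent. It was 0.04 and 0.02 FPKM in HeyC2, about 2 and 1 fragments, and was listed at 0 in both SKOV3 libraries, where 3 fragments would have given 0.0673 and 0.0729 FPKM.

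Summed FPKM of the 3 D-type cyclins was 361 and 251 in HeyC2 and 181 and 53.8 in SKOV3. CCND1 made up 91.2% of that sum in control and 90.9% in TET1-reprogrammed HeyC2. In SKOV3 its share was 80.5% in the control and 48.7% with TET1. The makeup of the D-type cyclins thus hardly moved in HeyC2, whereas CCND3 passed CCND1 in TET1-reprogrammed SKOV3, with a CCND1 to CCND3 ratio of 0.951. Such ratios are taken within 1 library and do not depend on the GAPDH constant.

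CCNE1 and CCNE2, the E-type cyclins that activate CDK2, differed between the lines. CCNE1 was 3.88 FPKM in control and 1.24 FPKM in TET1-reprogrammed HeyC2, about 52 and 15 fragments, a relative log2 change of -1.18 (interval -2.63 to -0.84). In SKOV3 it was 11.02 and 11.49 FPKM, a relative log2 change of -0.14 (interval -0.50 to 0.20), so no difference was detectable there. CCNE2 was 1.32 FPKM in control and 3.00 FPKM in TET1-reprogrammed HeyC2, about 25 and 50 fragments, with a relative log2 change of 0.73 (interval 0.38 to 1.85) that was 1.11 with a pseudocount of 0.01. In SKOV3 CCNE2 was 9.10 and 4.46 FPKM, about 161 and 73 fragments, with a relative log2 change of -1.08 (interval -1.66 to -0.83). CCNE2 was thus higher with TET1 in HeyC2 and lower in SKOV3, and CCNE1 was lower in HeyC2. The genes INTS8 and NDUFAF6 overlap CCNE2 in the annotation. The strand setting of the counting is not given in the sources used here, so fragments of the shared stretches cannot be assigned with certainty. INTS8 had relative log2 changes of 0.03 in HeyC2 and 0.54 in SKOV3, and NDUFAF6 of 0.46 and -0.47. The part of these genes in the CCNE2 values was not tested.

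The sum of both E-type cyclins stayed closer to its control than either gene in HeyC2, at 5.20 and 4.24 FPKM, and was 20.1 and 15.9 FPKM in SKOV3. Their balance moved in opposite directions. The share of CCNE1 in that sum was 74.6% in control and 29.2% in TET1-reprogrammed HeyC2, and 54.8% and 72.0% in SKOV3. The CCNE1 to CCNE2 ratio was accordingly 2.94 and 0.413 in HeyC2, and 1.21 and 2.58 in SKOV3.

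CCNA1, a cyclin mostly known from male germ cells and some leukaemias, was lower with TET1 in both lines. It was 3.23 FPKM in control and 0.44 FPKM in TET1-reprogrammed HeyC2, about 38 and 5 fragments, so that it passed the filter there through its control level. In SKOV3 it was 23.4 and 6.01 FPKM, about 260 and 62 fragments. The relative log2 change was -1.61 in HeyC2 (interval without pseudocount -4.53 to -1.48) and -1.99 in SKOV3 (interval -2.59 to -1.76). Over the alternatives the value in HeyC2 ranged from -2.91, with a pseudocount of 0.01, to -1.58. Apart from CCND1 in SKOV3, these were the lowest values among the members in each line.

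**Figure D2:**
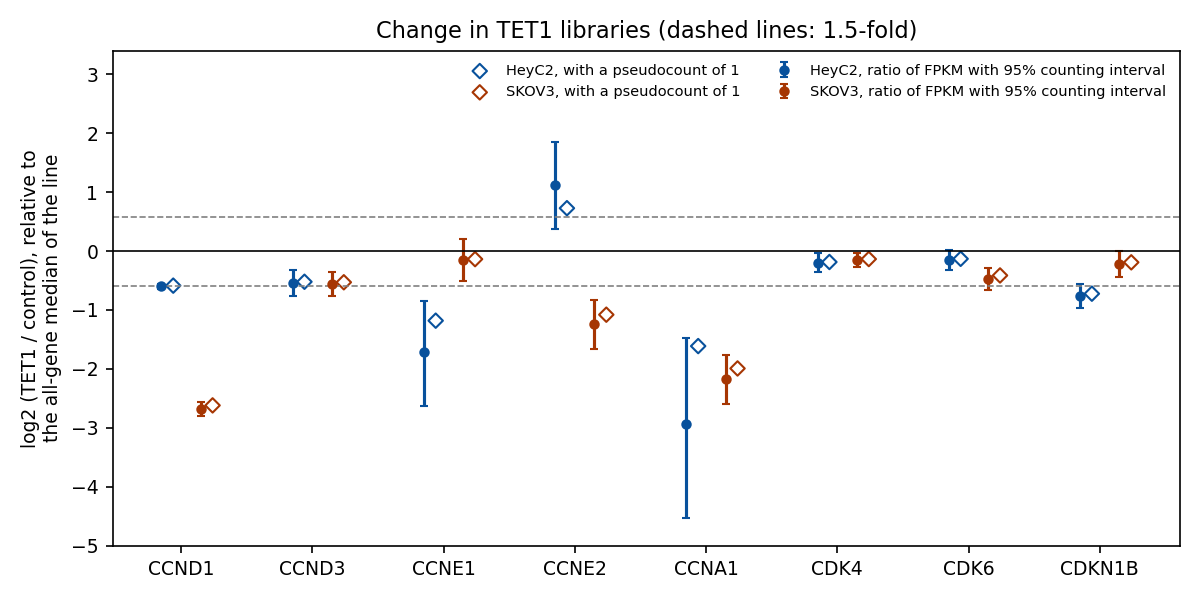
Log2 change with TET1 of the 8 members that passed the filter, in HeyC2 (blue) and SKOV3 (brown), relative to the all-gene median at 0, with dashed lines at 1.5-fold. Open diamonds are the values with a pseudocount of 1, and filled points with bars are the ratio without it and its 95% counting interval. Among the diamonds, CCND1 in SKOV3 was lowest at -2.62, and CCNE2 in HeyC2 was the 1 member past the threshold on the higher side.

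CDK4 and CDK6, the kinases that the D-type cyclins activate, were not called in either line. CDK4 was 56.6 and 51.7 FPKM in HeyC2 and 103 and 107 FPKM in SKOV3, with relative log2 changes of -0.19 (interval -0.35 to -0.04) and -0.14 (interval -0.27 to -0.04). CDK6 was 7.87 and 7.43 FPKM in HeyC2 and 6.80 and 5.69 FPKM in SKOV3, with relative log2 changes of -0.13 (interval -0.31 to 0.01) and -0.41 (interval -0.66 to -0.29). The levels of the 2 libraries of a line thus lay close for both kinases, and CDK4 exceeded CDK6 by 6.96 to 18.9 times in the 4 libraries. The gene TSPAN31 overlaps CDK4 in the annotation, and since the strand setting of the counting is not given in the sources used here, fragments of the shared stretch cannot be assigned with certainty.

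CDKN1B, which encodes p27, was called lower in HeyC2 alone. It was 33.6 FPKM in control and 20.8 FPKM in TET1-reprogrammed HeyC2, about 566 and 313 fragments, a relative log2 change of -0.72 (interval -0.96 to -0.55). In SKOV3 it was 22.8 and 22.9 FPKM, about 363 and 335 fragments, a relative log2 change of -0.19 (interval -0.43 to 0.0025). The difference of this change between the lines was not tested. CDKN2A was listed at 0 in all 4 libraries, where 3 fragments would have given 0.486 and 0.544 FPKM in HeyC2 and 0.516 and 0.558 FPKM in SKOV3. These levels are a guide and not a strict limit of detection. Expression well below them could have gone unseen at this depth, and neither p16 nor ARF transcripts could be compared between groups.

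The region around CDKN2A on chromosome 9 was read in its neighbours. CDKN2B, which encodes the related inhibitor p15, and ELAVL2 were listed at 0 in all 4 libraries. MTAP, an enzyme of methionine salvage next to CDKN2A, was listed at 0 in both HeyC2 libraries and was 7 and 7.39 FPKM in SKOV3. DMRTA1 was listed at 0 in HeyC2 and was 0.07 and 0.49 FPKM in SKOV3. MIR31HG, 408 kb from CDKN2A, was listed at 0 in both HeyC2 libraries and was 2.85 and 5.77 FPKM in SKOV3. The 2 lines thus shared the zeros of CDKN2A and CDKN2B and differed at MTAP and MIR31HG. FOCAD, KLHL9 and HACD4, other genes within 1 Mb, were between 4.99 and 8.61 FPKM in HeyC2. Copy number was not measured in these libraries.

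The D-type cyclins were next set against the kinases they activate. Their summed FPKM was 5.6 times that of CDK4 and CDK6 in control HeyC2 and 4.24 times with TET1. In SKOV3 the same ratio was 1.64 in the control and 0.476 with TET1, so TET1-reprogrammed SKOV3 had less D-type cyclin than CDK4 and CDK6 transcript. The sum of CDK4 and CDK6 was 64.5 and 59.2 FPKM in HeyC2 and near 110 and 113 FPKM in SKOV3, so the ratio moved with the cyclins.

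Against CDKN1B, the D-type cyclins were 10.8 and 12.1 times as high in HeyC2, since both were lower with TET1, and 7.91 and 2.36 times as high in SKOV3. CCND1 alone was 9.81 and 10.96 times CDKN1B in HeyC2 and 6.37 and 1.15 times in SKOV3. The CDK4 to CDKN1B ratio was 1.69 and 2.49 in HeyC2 and 4.52 and 4.70 in SKOV3. The ratio of D-type cyclins to CDKN1B was thus lower with TET1 in SKOV3 and close to its control in HeyC2, on transcripts alone.

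**Figure D3:**
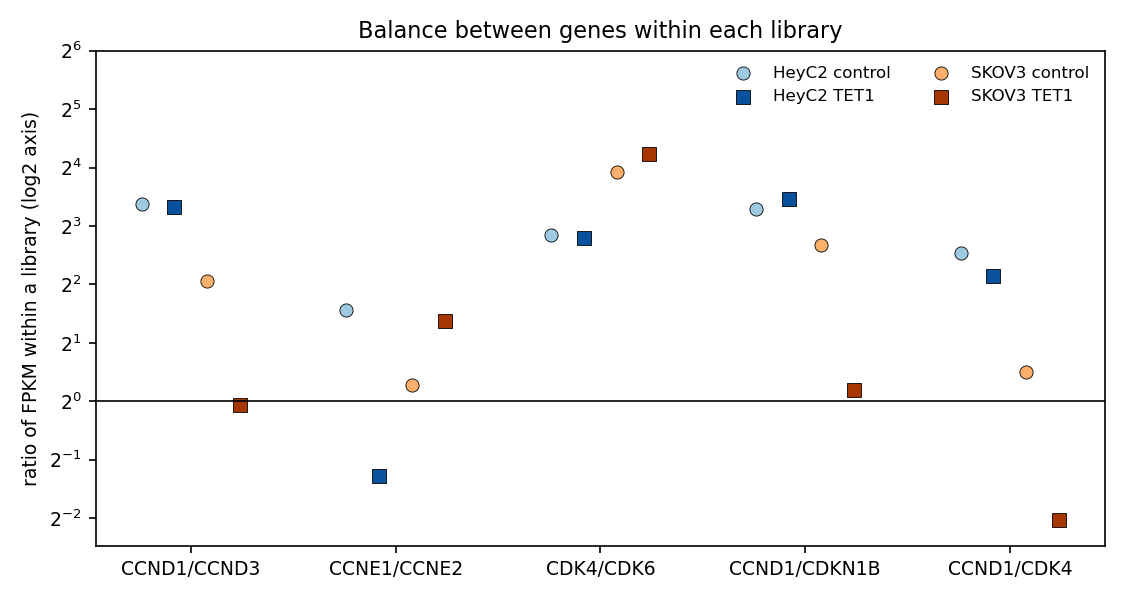
Ratios of member FPKM within each library, on a log2 axis, with 1 point for each of the 4 libraries and a line at 1. The CCND1 to CCND3 ratio was 10.38 and 10.03 in HeyC2 and 4.14 and 0.951 in SKOV3, and the CCNE1 to CCNE2 ratio moved in opposite directions in the 2 lines.

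From the highest to the lowest, the order in control HeyC2 was CCND1, CDK4, CDKN1B, CCND3, CDK6, CCNE1, CCNA1 and CCNE2, with CCND2 and CDKN2A at or near 0. In TET1-reprogrammed HeyC2 CCND3 passed CDKN1B, and CCNE2 passed CCNE1 and CCNA1. In control SKOV3 the order was CCND1, CDK4, CCND3, CCNA1, CDKN1B, CCNE1, CCNE2 and CDK6, and with TET1 it was CDK4, CCND3, CCND1, CDKN1B, CCNE1, CCNA1, CDK6 and CCNE2. With 1 library per group, neighbours in these orders have no spread between replicates, so whether close levels such as those of CCND3 and CCND1 in TET1-reprogrammed SKOV3 differ could not be judged.

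The 2 lines also differed before TET1. The control tables may have been normalized separately, so these values are relative to the all-gene median between the controls, -0.27 on the log2 scale for HeyC2 minus SKOV3. Of the 8 members that passed, 2 were called higher in HeyC2 and 4 lower, where 29.0% of 12488 genes were called higher and 28.6% lower. CCND1 was higher in HeyC2 by 1.44 (interval 1.40 to 1.51) and CDKN1B by 0.80 (interval 0.64 to 1.02) on the log2 scale. CCNA1 was lower by a relative log2 difference of -2.26, CCNE2 by -1.85, CCNE1 by -1.03 and CDK4 by -0.59. The CDK4 call was just past the threshold and was lost with pseudocounts of 0.1 and 0.01 and with TPM, where 3 members were called lower. CDK6 at 0.45 and CCND3 at 0.12 were not called. In the controls, HeyC2 thus had more D1 cyclin and p27 transcript, and SKOV3 had more transcript of the E-type cyclins and CCNA1.

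The other genes of the pathway were taken from lists of 58 genes without the members. In HeyC2, 54 of them passed the filter, 3 were called higher and 9 lower, with a median relative log2 change of -0.16. In SKOV3, 57 passed, 6 were called higher and 35 lower, with a median of -0.96. Among all genes, 9.19% were called lower and 12.5% higher in HeyC2, and 18.2% lower and 20.7% higher in SKOV3. The same shares apply to the counts of each list below.

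The E2F target genes of S phase copy DNA and make its building blocks. In SKOV3, 13 of 14 were called lower with a median of -1.29, and MCM6, a subunit of the replicative helicase, was at -0.52. In HeyC2, 2 of 14 were called lower and 1 higher, with a median of -0.11. RRM2, the small subunit of ribonucleotide reductase, was 15 and 5.90 FPKM in HeyC2 and 116 and 23.3 FPKM in SKOV3, and TK1, the thymidine kinase, had relative log2 changes of -0.71 and -1.69, so both were called lower in both lines. PCNA, the sliding clamp of DNA polymerase, was 57.1 and 97.3 FPKM in HeyC2 and 208 and 107 FPKM in SKOV3, called higher in the former and lower in the latter.

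Among the E2F factors and their DP partners, 2 of 8 were called higher and 0 lower in HeyC2, whereas in SKOV3 2 of 10 were called higher and 6 lower. E2F1, the activator best known as a target of RB, was 8.71 and 15.02 FPKM in HeyC2 and 74.5 and 42.2 FPKM in SKOV3. TFDP2, a DNA-binding partner of E2F, was called higher in both, with relative log2 changes of 0.83 and 0.81, and E2F7, a repressor of the family, was at -0.15 and -1.22. In the RB family, 0 of 3 were called in HeyC2, and in SKOV3 RB1 was at -1.06 and RBL1 at -1.42 while RBL2 was at 0.59. RBL2 encodes p130, the member of the family that prevails in resting cells. The DREAM subunits repress cell cycle genes together with RBL1 or RBL2. Of the list of these subunits and the kinase DYRK1A, 1 of 5 was called lower in HeyC2, and 2 lower and 1 higher in SKOV3. With 5 genes, these counts cannot be told apart from the shares over all genes. LIN54, the DNA-binding subunit of DREAM, was called lower in both lines at -0.60 and -1.21. Its call in HeyC2, on 2.27 and 1.24 FPKM, was just past the threshold. LIN37 was at -0.39 and 0.71.

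The other CDK inhibitors moved apart. CDKN1A, which encodes p21, was 397 and 212 FPKM in HeyC2 and 10.3 and 19.8 FPKM in SKOV3, lower in the first line and higher in the second. CDKN1C, which encodes p57, was at 0.33 in HeyC2 and 0.97 in SKOV3 on the relative log2 scale. CDKN2C, a relative of p16 that also binds CDK4 and CDK6, was 5.58 and 2.87 FPKM in HeyC2 and 85.3 and 17.5 FPKM in SKOV3, called lower in both at -0.82 and -2.42. Of the 4 inhibitors that passed, 2 were called lower and 0 higher in HeyC2, and 2 lower and 2 higher in SKOV3.

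Of the partner kinases and activators, 2 of 6 were called lower in HeyC2 and 4 of 7 in SKOV3. CCNA2, the cyclin of S phase and G2 in somatic cells, was 9.37 and 2.75 FPKM in HeyC2 and 92.7 and 21.3 FPKM in SKOV3. CDK1, the mitotic kinase, was at -0.82 and -0.90, and CCNH, a subunit of the kinase that activates CDKs, was at -0.08 and -0.24. CDK2, the partner of the E-type cyclins, was 18.8 and 19.2 FPKM in HeyC2 and 45.3 and 31.4 FPKM in SKOV3. Among the genes of p27 and cyclin turnover, 1 of 10 was called lower in HeyC2 and 2 of 10 in SKOV3. These counts were near the shares of all genes called lower, 9.19% and 18.2%. CKS1B, the cofactor with which the ligase subunit SKP2 recognises p27, was at -0.28 and -0.99, and FBXO31, an F-box protein of cyclin D1 turnover, was at 0.48 and 0.42. Of the upstream factors, 1 of 4 was called lower in HeyC2 and 4 of 4 in SKOV3, among them FOXM1, an activator of mitotic genes, at -1.76 and -1.22. The call of FOXO3 in SKOV3, at -0.59, was just past the threshold. FOXO1, an activator of CDKN1B, was at 0.11 and -0.70.

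Markers of proliferation were lower with TET1 in both lines, in HeyC2 beside pathway lists with a median of -0.16 and in SKOV3 beside lists with a median of -0.96. Of 10 markers, 10 were called lower in HeyC2, from -2.10 to -1.01 with a median of -1.33, and 9 of 10 in SKOV3, with a median of -1.18. The 9 called lower in both lines were MKI67, TOP2A, BUB1, PLK1, AURKA, BIRC5, CENPF, TPX2 and KIF11, genes of chromosome handling, the spindle and cell division. MKI67 was 12.01 and 2.16 FPKM in HeyC2 and 75.6 and 29.1 FPKM in SKOV3. AURKB, a mitotic kinase, was at -1.33 in HeyC2 and -0.53 in SKOV3. Their part in the values of the cyclins was not tested.

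**Figure D4:**
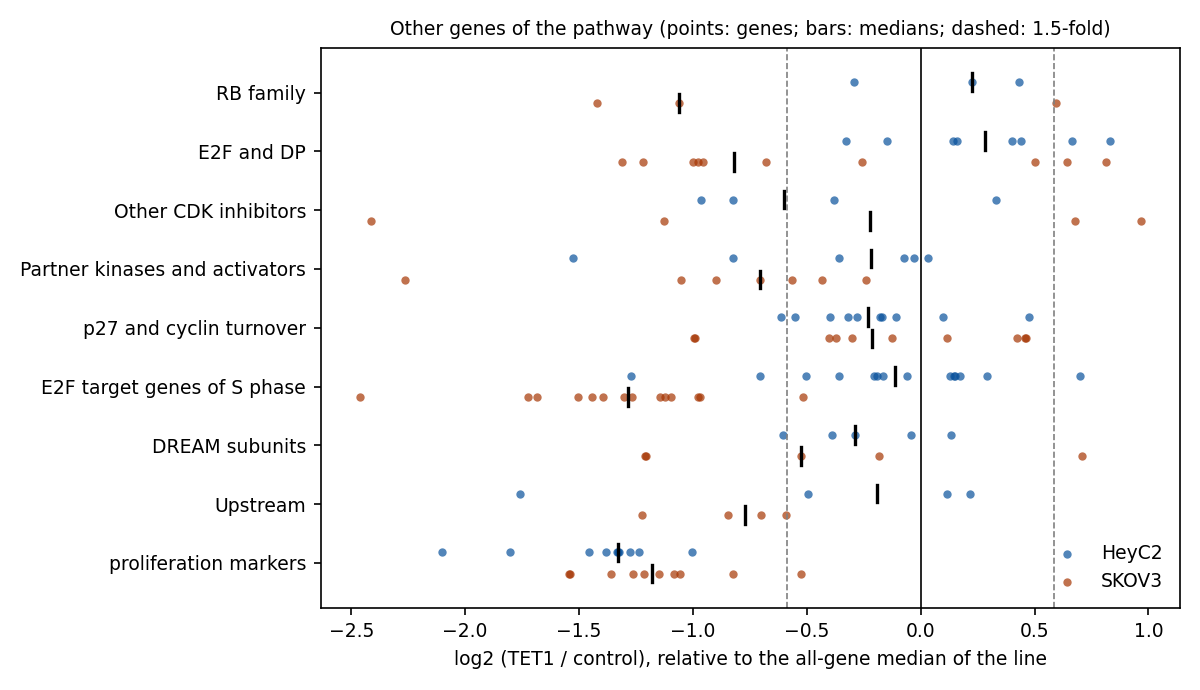
Relative log2 change of the other genes of the pathway lists and of the proliferation markers in HeyC2 (blue) and SKOV3 (brown), with 1 point per gene and line, a bar at the median of each list and dashed lines at 1.5-fold. In SKOV3, 13 of 14 E2F target genes lay past the 1.5-fold line on the lower side, and in HeyC2 2 of 14, while the 10 proliferation markers were low in both.

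Genes within 1 Mb of each member were compared next, an analysis chosen after the values were seen. CDKN1B lies on the short arm of chromosome 12, and its 15 neighbours that passed in HeyC2 had a median relative log2 change of -0.70, with 9 called lower. Over the whole short arm in HeyC2, 148 genes had a median of -0.72, 91 were called lower and 2 higher, and 73 of them (49.3%) were lower than CDKN1B, which was at -0.72 itself. The long arm, with 454 genes, had a median of -0.05 in HeyC2. In SKOV3 the short arm had a median of -0.01 over 138 genes. The relative change of CDKN1B in HeyC2 thus stood at the middle of its chromosome arm, and the part of the arm in its value was not tested. CCND2, on the same arm, was too low to be compared, and all 8 of its neighbours that passed in HeyC2 were called lower.

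CDK4 showed the reverse in SKOV3. The 24 neighbours that passed had a median relative log2 change of 1.07, with 17 called higher and 2 lower, while CDK4 was at -0.14. GLI1, a transcription factor of Hedgehog signalling, was 0.12 FPKM in control and 11.8 FPKM in TET1-reprogrammed SKOV3. INHBE, a subunit of activin, was 0.31 and 10.4 FPKM, and DDIT3, a transcription factor of the stress response, was 34.4 and 89.8 FPKM. TSPAN31, which overlaps CDK4, was 12.8 and 32.0 FPKM, a relative log2 change of 1.07, and METTL1, on the lower side, was 17.6 and 11.1 FPKM. In HeyC2 the 23 neighbours of CDK4 had a median of 0.03. CDK4 was thus unlike most genes around it in SKOV3 and like them in HeyC2.

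The neighbours of CCND1 had a median of 0.17 over 8 genes in HeyC2 and -0.51 over 9 genes in SKOV3, where 8 were below the all-gene median and 2 were called lower. CCNA1, at -1.61 and -1.99, had neighbours with medians of -0.41 and -0.18, and CCNE1 had neighbours with medians of -0.20 and 0.13. For CCND3, CCNE2, CDK6 and CDKN2A the medians of the neighbours lay between -0.32 and 0.31 in both lines.

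**Figure D5:**
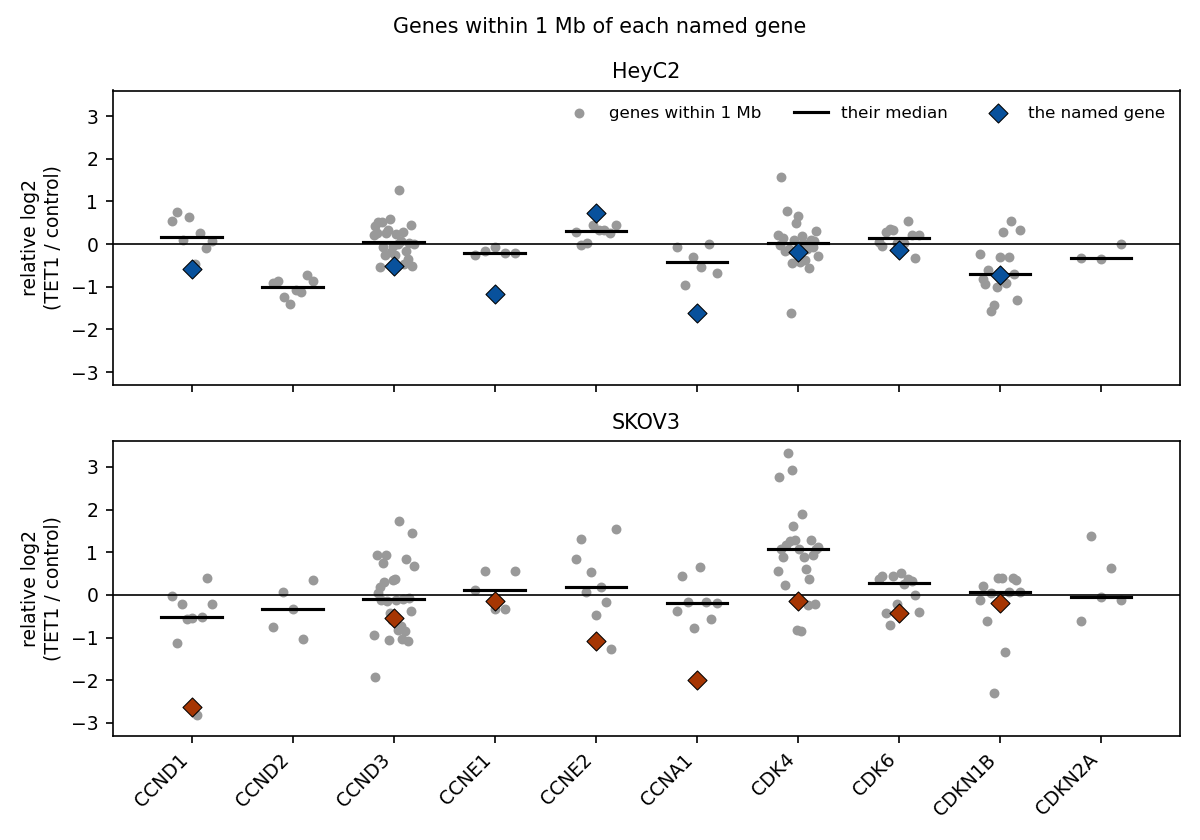
Relative log2 change of each member and of its neighbours within 1 Mb that passed the filter, in HeyC2 and SKOV3, with the gene as a diamond, its neighbours as grey points and their median as a bar. The neighbours of CDKN1B had a median of -0.70 in HeyC2, where the gene was at -0.72, and those of CDK4 had a median of 1.07 in SKOV3, where the gene was at -0.14.

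For the 3 members with the widest range over the 4 libraries, the genes with the nearest profile were sought among 13088 genes, by the Euclidean distance between centred log2(FPKM + 1) values. For CCND1 the nearest was MYEOV, a gene 273 kb away on chromosome 11, at a distance of 0.44. MYEOV was 106 and 80.0 FPKM in HeyC2 and 69.3 and 10.4 FPKM in SKOV3, relative log2 changes of -0.46 and -2.82. It was followed by the leukocyte integrin subunit ITGB2 at 0.59, which was 18.8 and 16.5 FPKM in HeyC2 and 9.27 and 0.22 FPKM in SKOV3, and by the cytidine deaminase gene CDA at 0.75. For CCNA1 the nearest were CDCA8, CDC20 and KIFC1 at distances of 0.22 to 0.24, of which CDC20, an activator of the anaphase-promoting complex, was 43.2 and 15.3 FPKM in HeyC2 and 277 and 90.6 FPKM in SKOV3. CDCA8 and KIFC1 also act in mitosis. For CCNE1 the nearest were the helicase PIF1, the mitochondrial protease LONP1 and the quinone reductase NQO1, at 0.06 to 0.12. NQO1 was 52.2 and 26.1 FPKM in HeyC2 and 137 and 136 FPKM in SKOV3. These profiles rest on 4 libraries from 2 lines and describe likeness only.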

How the data were processed

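RNA was analysed in HeyC2 and SKOV3 cells, control and TET1-reprogrammed, with 1 library per group. Per the labels, the authors made paired-end TruSeq libraries, aligned the reads to hg19 with Bowtie2 2.2.6 and quantified with RSEM 1.2.17, as the submitters' processing notes also name them. The deposited values are FPKM, 1 table per line. By the values themselves, each TET1 column had been multiplied by a constant that sets GAPDH to its control value. This step is inferred and is not stated in the sources used here. The constant was recovered from the value grid of 0.01 FPKM: 100% of distinct TET1 values under 40 FPKM lay on it within 0.005 FPKM. The annotation, filters and strand setting are not given in the sources used here.

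Each TET1 column was divided by its constant, because a pseudocount added to scaled values lowers weakly expressed genes. Changes were computed as log2(FPKM + 1), over genes with a mean of at least 1 FPKM in the 2 libraries, minus the all-gene median, on the log2(value + pseudocount) scale that understates changes of low genes. Genes past 1.5-fold were called. No p-value was computed. Fragments were estimated from FPKM, transcript length less 150 bases and a depth read from low values (6500000 to 7500000 fragments), and gave 95% exact binomial intervals and floors of 3 fragments. The scripts were tested on simulated data, with changes planted only in well expressed genes and well past the threshold. That test does not cover weakly expressed members or changes near 1.5-fold. Positions came from GENCODE on GRCh37, with 22638 of 26506 symbols (85.4%) matched, and promoter windows from RefSeq on GRCh38.p14.

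The members and all lists were chosen with earlier results of these data known. Named were all members, the highest and lowest gene of each list by mean change over both lines, genes of a list called the same way in both lines, the 9p21 neighbours, TET1, GAPDH and the nearest profiles, which are the 3 nearest genes of the 3 members with the widest range. RBL1, CDK2, E2F1, CDKN1A, MCM6, FOXO3, the called neighbours, the genes that overlap CCNE2 and the genes near CDKN2A were named after their values were seen. Alternatives were the values as deposited, pseudocounts of 0.1 and 0.01, no filter and a filter of 5 FPKM, TPM, upper quartile scaling, a median without the short arm of chromosome 12, and thresholds of 1.2-fold and 2-fold. Python 3.11.15, numpy 2.4.6, pandas 2.3.3, scipy 1.17.1 and matplotlib 3.10.9 were used.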

Additional observations from a re-analysis of the deposited data

Results flagged for a closer look

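Of the members and the other pathway genes, 4 were called in opposite directions in the 2 lines. Among all genes, 12.5% were called higher and 9.19% lower in HeyC2, and 20.7% and 18.2% in SKOV3. The share of all genes called in opposite directions is not given here, so the count has no background to be judged by. CCNE2, which INTS8 and NDUFAF6 overlap in the annotation, had a relative log2 change of 0.73 in HeyC2 and -1.08 in SKOV3. E2F1 was at 0.66 and -0.999, and PCNA was at 0.70 and -1.14, so both were higher with TET1 in HeyC2 and lower in SKOV3, like CCNE2. CDKN1A was the reverse, at -0.96 in HeyC2 and 0.68 in SKOV3. The difference between the lines was not tested for any of them, since each group has 1 library.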

How the results depend on the processing

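All 16 member changes (8 members in each of the 2 lines) kept their sign under every alternative that gave a value. CCND1 in HeyC2, at -0.45 with the values as deposited, was the 1 value that moved by more than its counting interval reaches to either side. The weakly expressed genes of HeyC2 have wide intervals and moved further in log2 units: with a pseudocount of 0.01, CCNA1 was -2.91, CCNE1 was -1.70 and CCNE2 was 1.11, since a smaller pseudocount shrinks the changes of low values less. With a filter of 5 FPKM, 5 members passed in HeyC2, of which 0 were higher and 1 lower. Of all 8565 genes that passed it there, 993 were higher and 673 lower. At 2-fold, members in HeyC2 numbered 0 higher and 2 lower, and members between the controls 1 higher. Pathway genes at 2-fold numbered 0 higher and 3 lower in HeyC2, and 0 higher and 22 lower in SKOV3. All genes at 2-fold numbered 489 higher and 337 lower of 11896 in HeyC2, and 1319 and 845 of 13016 in SKOV3. The all-gene count between the controls at 2-fold is not given. At 1.2-fold, 5 members in SKOV3 were lower. Pathway genes at 1.2-fold numbered 9 higher and 22 lower in HeyC2, and 10 higher in SKOV3. All genes at 1.2-fold numbered 3302 higher and 3134 lower of 11896 in HeyC2, and 4535 and 4437 of 13016 in SKOV3. With a pseudocount of 0.01, pathway genes in HeyC2 numbered 5 higher, where 1855 of all 11896 genes were higher. Upper quartile scaling moved the share of called genes that were higher in SKOV3 from 53.2% to 63.4%. Counts differ at other thresholds and filters by construction. For the value as deposited and the scaling, the cause was not tested. No replicate could be left out, since each group has 1 library. No paired analysis was possible because the result comes from no test and each group has 1 library. Depth limits CCND2 and CDKN2A, which were at or under the level of 3 fragments.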
